A study of Arabidopsis thaliana with 27 samples.

Results

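The genes examined here encode the enzymes that make inositol and join it to a lipid in Arabidopsis: the inositol phosphate synthases MIPS1 (AT4G39800), MIPS2 (AT2G22240) and MIPS3 (AT5G10170), and the phosphatidylinositol synthases PIS1 (AT1G68000) and PIS2 (AT4G38570). They were chosen by locus code. Of these 5 genes, 4 had a named probe set, 1 each, among the 22746 probe sets of the table (14145 genes were named in all), and MIPS3 was not analysed here.

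MIPS turns glucose phosphate into inositol phosphate, which a phosphatase converts into free inositol. PIS then attaches inositol to CDP-diacylglycerol and so makes phosphatidylinositol, a lipid of the endomembranes from which the signalling phosphoinositides and inositolphosphorylceramides derive. In leaves, inositol also feeds into cell wall precursors, raffinose sugars and phytate, and loss of MIPS1 lowers leaf inositol and leads to spontaneous lesions in long days.

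The arrays came from wild-type Col-0 plants grown on agar at 22 °C in long days, with the tissue labelled leaf and described in the methods as aerial parts. Plants aged 18 days were moved to 38 °C and sampled after 8 h (Heat08 hr, 18 days old) and 24 h (Heat24 hr, 19 days old), and then again 8 h (Recovery08 hr, 19 days old) and 24 h (Recovery24 hr, 20 days old) after their return to 22 °C, with 3 arrays per group. Control08 hr had 6 arrays from plants kept at 22 °C, 3 each at 18 and 19 days, and Control24 hr had 9, 3 each at 18, 19 and 20 days. The 08 hr groups were harvested 11 h after the onset of light, that is, in the afternoon, and the 24 hr groups 3 h after it, in the morning. The labels call the arrays of a group biological replicates. Comparisons at one clock time share their control arrays, and the length of a treatment, the age of the plants and the clock time cannot be told apart within the treated groups.

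All values are MAS5 signals on a linear scale, read from 1-colour ATH1 arrays on which several short oligonucleotides form the probe set of a gene. The trimmed mean of the signals was 494.5 to 496.8 on every array, whereas the median signal was 162 to 175.9 on control arrays and lower in heat (128.1 to 133.6 on the Heat08 hr arrays, 119.8 to 130.6 on the Heat24 hr arrays). Among named leaf markers, LHCB4.1 and RCA, encoding a light-harvesting protein and Rubisco activase, had signals of 7751 to 39314 on all 27 arrays. The seed marker OLEO1, encoding an oil body protein, stayed between 5.06 and 67.0, and none of the 3 root markers on the list had a named probe set. The transcript of HSFA2, a heat stress transcription factor, averaged 19.5 at Control08 hr and 14.8 at Control24 hr but 1182 and 4930 on the arrays of 8 h and 24 h of heat. At Recovery08 hr, replicate 3 differed from the other 2 arrays more than these did from each other, and the values against Control08 hr are also given without it. As aerial parts were extracted whole, fewer cells that express a gene and less RNA per cell cannot be told apart.

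In unheated plants, both inositol phosphate synthase transcripts had a morning excess over the afternoon, while neither phosphatidylinositol synthase transcript passed the test. MIPS1 signal ranged from 4148 to 4727 in the afternoon, with a median of 4330, and from 8350 to 11281 in the morning, with a median of 10375. MIPS2 signal ranged from 183 to 397 in the afternoon, with a median of 260, and from 2081 to 3181 in the morning, with a median of 2755. No morning array overlapped an afternoon array for either gene. Overlap was read for the 4 genes only and not over all probe sets, so here and below it is a description. MIPS1 was 2.31-fold higher in the morning (log2 difference 1.21, SE 0.0707, adjusted p = 2.94e-09 by limma). MIPS2 was 9.98-fold higher (log2 difference 3.32, SE 0.150, adjusted p = 1.47e-10), which placed it at rank 70 of all 22746 probe sets. Over all probe sets, 7.84% were more than 1.5-fold higher in the morning and 8.22% more than 1.5-fold lower at an adjusted p under 0.05. Of the 4 genes, 2 were therefore called higher and 0 lower.

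PIS1 signal was 603 to 749 in the afternoon (median 672) and 659 to 842 in the morning (median 753), and the groups overlapped. The log2 difference was 0.13, with a 95% interval of -0.03 to 0.28 (adjusted p = 0.213 by limma). PIS2 signal was 259 to 398 in the afternoon (median 349) and 259 to 368 in the morning (median 320), and these groups overlapped too. Its log2 difference was -0.11, with an interval of -0.33 to 0.10 (adjusted p = 0.455). Plant age made no called difference among the controls. The largest age difference of the 4 genes was that of MIPS2 between 19 and 18 days at Control08 hr, with a log2 value of 0.49 (SE 0.221, adjusted p = 0.999).

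**Figure D1:**
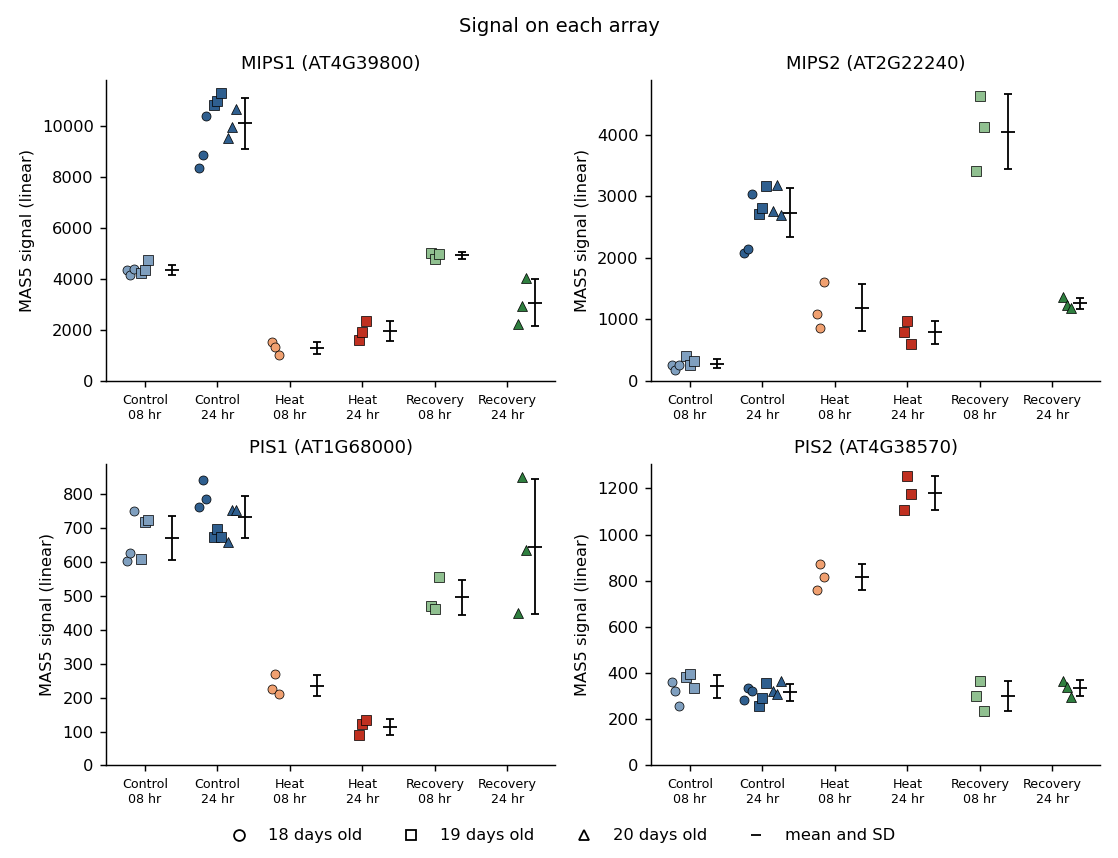
MAS5 signal (linear axis from 0) of each gene on each of the 27 arrays, by group. Markers give plant age, and the bar beside each group is the mean with the SD. MIPS1 and MIPS2 are higher at Control24 hr than at Control08 hr, PIS1 is lowest and PIS2 highest on the 6 heat arrays, and MIPS2 is highest at Recovery08 hr.

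After 8 h at 38 °C the genes of each pair moved in opposite directions: MIPS1 and PIS1 fell, and MIPS2 and PIS2 rose. On the 3 Heat08 hr arrays, MIPS1 signal was 1517, 1326 and 1020, against a lowest control of 4148. MIPS1 was 3.42-fold lower than at Control08 hr (log2 fold change -1.78, SE 0.123, adjusted p = 5.94e-06 by limma). MIPS2 signal on the same arrays was 1089, 866 and 1611, each above the highest control of 397. MIPS2 was 4.25-fold higher (log2 fold change 2.09, SE 0.265, adjusted p = 0.000212). No heat array overlapped a control array for either inositol phosphate synthase. On the log2 scale, MIPS2 over MIPS1 on one array went from a mean of -4.01 (SD 0.35, n = 6) at Control08 hr to -0.15 (SD 0.70, n = 3) at Heat08 hr. This ratio compares the changes of both probe sets, not the amounts of both transcripts, since probe sets differ in brightness.

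The phosphatidylinositol synthases split in the same way. PIS1 signal at Heat08 hr was 225, 269 and 210, below the lowest control of 603, and PIS1 was 2.87-fold lower (log2 fold change -1.52, SE 0.117, adjusted p = 1.11e-05 by limma). PIS2 signal was 761, 873 and 815, above the highest control of 398, and PIS2 was 2.40-fold higher (log2 fold change 1.26, SE 0.141, adjusted p = 9.68e-05). Both genes were thus separated from their controls without overlap. Of the 4 genes, 2 were called increased, at more than 1.5-fold, and 2 decreased, at less than 0.5-fold, where 14.6% of all probe sets were called increased and 16.3% decreased.

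After 24 h at 38 °C, MIPS1, MIPS2 and PIS1 were all lower than in morning controls, and PIS2 was higher. MIPS1 signal was 1597, 1929 and 2361, against control arrays of 8350 or more. The MIPS1 transcript was 5.18-fold lower (log2 fold change -2.37, SE 0.127, adjusted p = 1.07e-08 by limma). MIPS2 signal was 791, 975 and 602, below the lowest control of 2081, and it was 3.49-fold lower (log2 fold change -1.80, SE 0.167, adjusted p = 1.43e-06). Thus MIPS2, which had been above its afternoon control at Heat08 hr, lay below its morning control at Heat24 hr. Its signal at both heat harvests overlapped (866 to 1611 and 602 to 975), and the control against which it was set differed 9.98-fold.

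PIS1 had its lowest signals of the series at Heat24 hr, 88.4, 121 and 135, against a lowest control of 659. It was 6.48-fold lower (log2 fold change -2.70, SE 0.123, adjusted p = 2.88e-09 by limma), the largest heat decrease of the 4 genes. PIS2 had its highest signals of the series at the same harvest, 1107, 1254 and 1177, against a highest control of 368. It was 3.75-fold higher (log2 fold change 1.91, SE 0.109, adjusted p = 2.02e-08). No array of Heat24 hr overlapped a control array for any of the 4 genes, but the share of all probe sets without overlap was not counted. Of the 4 genes, 1 was called increased and 3 decreased, where 19.9% of all probe sets were called increased and 22.4% decreased. The leaf markers LHCB4.1 and RCA had log2 fold changes of -0.52 and -0.87 at Heat24 hr (adjusted p = 0.000418 and 4.11e-05), short of the limit, and their part was not tested.

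The change against the control differed between the heat harvests for all 4 genes, in a limma fit of the heat and control arrays of both clock times. The difference between both log2 fold changes, Heat24 hr less Heat08 hr, was -3.89 for MIPS2 (SE 0.306, adjusted p = 5.87e-09) and -1.18 for PIS1 (SE 0.169, adjusted p = 1.50e-05). It was -0.60 for MIPS1 (SE 0.175, adjusted p = 0.0112) and 0.64 for PIS2 (SE 0.172, adjusted p = 0.00577). For PIS1 and PIS2 the later heat harvest lay further from its control in the same direction, and for MIPS2 the direction turned. Of all probe sets, 35.9% passed this test in either direction. The MIPS1 value lost its call without replicate 1 of Heat08 hr (-0.47, adjusted p = 0.0521) or of Heat24 hr (-0.46, adjusted p = 0.0544), and that of PIS2 when only controls of the same age were used (0.58, adjusted p = 0.0863). Both were also under 2-fold.

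**Figure D2:**
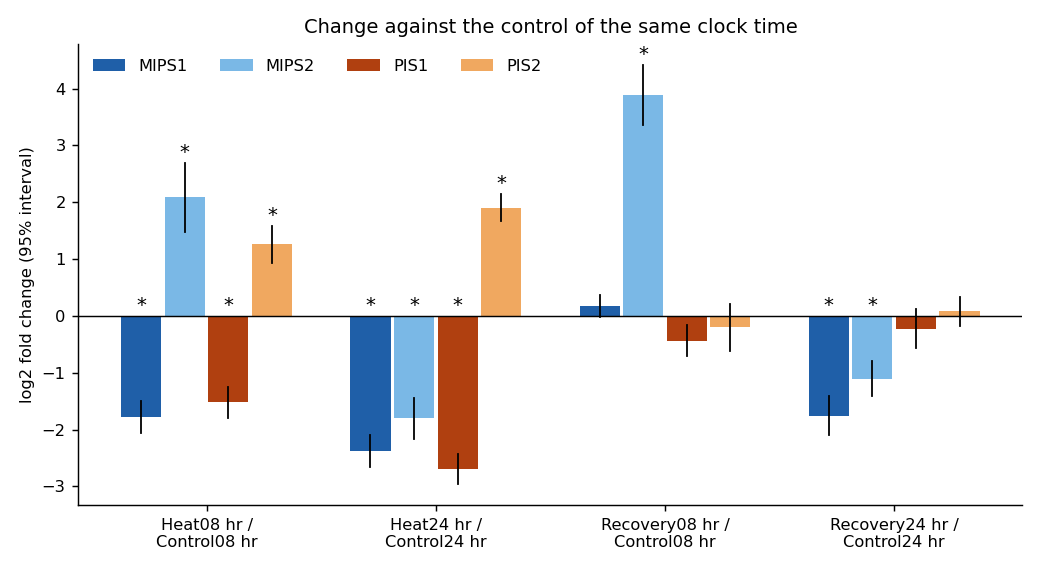
Log2 fold change of each gene against the control of the same clock time, with the 95% interval of the limma fit. An asterisk marks a called change (above 1.5-fold or below 0.5-fold at an adjusted p under 0.05). All 4 genes are called in both heat groups, and at recovery MIPS2 at Recovery08 hr (3.89) and MIPS1 and MIPS2 at Recovery24 hr (-1.75 and -1.10).

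Set against each other without the controls, the heat harvests differed less than the fold changes did for MIPS2. For the other genes the size was similar, with the opposite sign for MIPS1. PIS1 was lower at Heat24 hr than at Heat08 hr by a log2 difference of -1.05 (SE 0.207, adjusted p = 0.0216 by limma), and the arrays did not overlap. PIS2 was 1.45-fold higher at Heat24 hr (log2 difference 0.53, SE 0.118, adjusted p = 0.0306), which is under the 1.5-fold limit. MIPS1 (log2 difference 0.61, 95% interval 0.04 to 1.18, adjusted p = 0.115) and MIPS2 (-0.57, interval -1.33 to 0.19, adjusted p = 0.240) did not pass, although the MIPS1 arrays did not overlap. Of the 4 genes, 0 were called higher and 1 lower, where 9.76% of all probe sets were called higher and 11.3% lower. The PIS1 call was lost on leaving out replicate 1 or 2 of Heat08 hr or replicate 1 or 2 of Heat24 hr (adjusted p = 0.0547 to 0.0697).

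At 8 h of recovery MIPS2 reached its highest signals of the series, while MIPS1 and PIS2 were at levels whose difference from the control did not pass the test. MIPS2 signal was 3404, 4633 and 4121, above every control of both clock times, whose highest was 3181 in the morning and 397 in the afternoon. Against Control08 hr it was 14.9-fold higher (log2 fold change 3.89, SE 0.230, adjusted p = 3.31e-06 by limma), rank 293 of all probe sets. MIPS1 signal was 5009, 4759 and 4987, just above the highest control of 4727. Its log2 fold change was 0.18, with a 95% interval of -0.01 to 0.37 (adjusted p = 0.112). The arrays of both groups did not overlap for MIPS1, although the test was not passed. The leaf marker LHCB4.1 was called decreased at this harvest, with a mean signal of 9242 against 27496 in its control, and RCA had a log2 fold change of -0.85 (adjusted p = 0.000123), short of the 0.5-fold limit. Their part in these results was not tested.

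PIS1 signal at Recovery08 hr was 470, 461 and 555, below the lowest control of 603. Its log2 fold change of -0.44 (SE 0.118, adjusted p = 0.0130 by limma) passed the p threshold but did not reach the 0.5-fold limit. PIS2 signal was 300, 367 and 235, overlapping the controls, with a log2 fold change of -0.20 and an interval of -0.61 to 0.21 (adjusted p = 0.393). Without replicate 3 of Recovery08 hr, the array that differed most from the others, the log2 fold change was 3.87 for MIPS2, 0.17 for MIPS1, -0.52 for PIS1 and -0.03 for PIS2. Of the 4 genes, 1 was called increased and 0 decreased, where 21.7% of all probe sets were called increased and 17.1% decreased.

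At 24 h of recovery both inositol phosphate synthase transcripts were below the morning control, while neither phosphatidylinositol synthase transcript passed the test. MIPS1 signal was 2222, 2935 and 4034, and the highest of these lay below the lowest control of 8350. MIPS1 was 3.37-fold lower (log2 fold change -1.75, SE 0.157, adjusted p = 9.47e-06 by limma). MIPS2 signal was 1361, 1240 and 1183, below the lowest control of 2081. It was 2.15-fold lower (log2 fold change -1.10, SE 0.140, adjusted p = 0.000103). Neither gene had an overlap between recovery and control arrays. The leaf markers LHCB4.1 and RCA had log2 fold changes of -0.998 and -0.88 at this harvest (adjusted p = 4.83e-05 and 0.000272 by limma), which did not reach the 0.5-fold limit, and their part in these results was not tested.

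PIS1 signal at Recovery24 hr spread from 450 in replicate 1 through 636 in replicate 3 to 850 in replicate 2 and overlapped the controls. Its log2 fold change was -0.23, with an interval of -0.57 to 0.11 (adjusted p = 0.285 by limma), and it was 0.01 without replicate 1. PIS2 signal was 365, 341 and 298, within the range of its controls, with a log2 fold change of 0.09 and an interval of -0.17 to 0.34 (adjusted p = 0.609). Of the 4 genes, 0 were called increased and 2 decreased, where 11.8% of all probe sets were called increased and 7.36% decreased.

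The change against the control differed between the recovery harvests for both inositol phosphate synthases. Recovery24 hr less Recovery08 hr, the difference between both log2 fold changes was -4.99 for MIPS2 (SE 0.259, adjusted p = 2.77e-11 by limma) and -1.93 for MIPS1 (SE 0.185, adjusted p = 1.12e-07). For PIS1 it was 0.21 (95% interval -0.21 to 0.63, adjusted p = 0.454) and for PIS2 0.29 (interval -0.14 to 0.71, adjusted p = 0.307). Of all probe sets, 39.1% passed this test in either direction. The PIS1 value became 0.45 (adjusted p = 0.0413) without replicate 1 of Recovery24 hr and -0.01 (adjusted p = 0.971) without replicate 2.

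The morning excess of MIPS transcripts called in controls was called in neither the heated nor the recovering plants, which had fewer arrays. In heat MIPS1 was still higher in the morning by 0.61 (interval 0.04 to 1.18, adjusted p = 0.115 by limma), and MIPS2 gave -0.57. That MIPS1 value was called over probe sets with a mean of at least 100 (adjusted p = 0.0421) and with all arrays in 1 fit (0.00822). MIPS2, 9.98-fold higher in the morning in controls, was lower at Recovery24 hr than at Recovery08 hr by a log2 difference of -1.68 (SE 0.187, adjusted p = 0.0162 by limma). MIPS1 gave -0.73 in the same comparison, with an interval of -1.35 to -0.10 (adjusted p = 0.105), PIS1 0.34 and PIS2 0.17. Of the 4 genes, 0 were called higher and 1 lower, where 7.18% of all probe sets were called higher and 7.17% lower. The MIPS2 arrays did not overlap, but the adjusted p rose to 0.0641 to 0.0795 on leaving out replicate 1 or 2 of Recovery08 hr or replicate 2 or 3 of Recovery24 hr. The tests between harvests given above are also tests of whether this morning-afternoon difference was the same in treated and control plants.

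**Figure D3:**
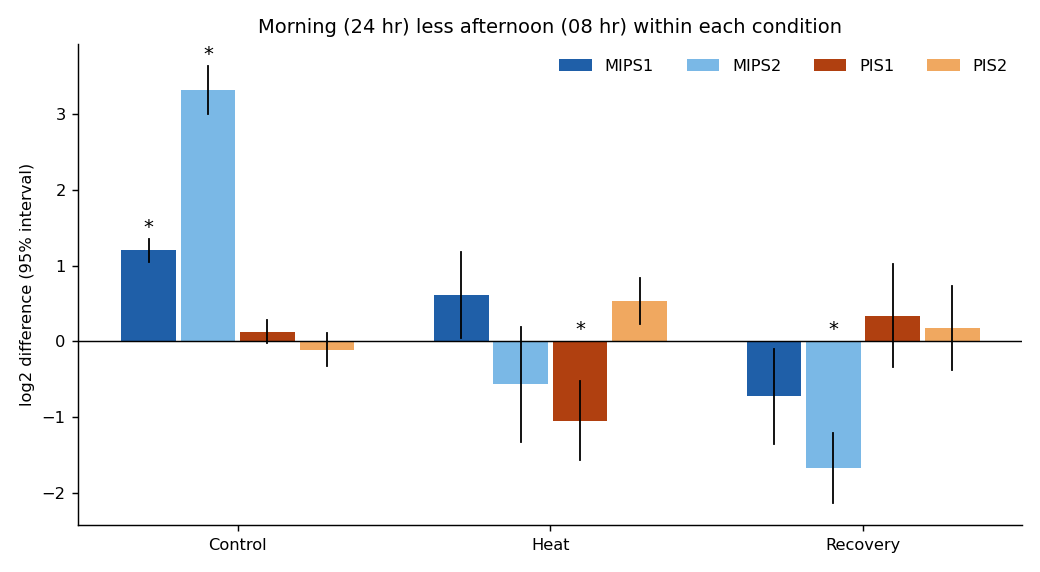
Log2 difference between the morning (24 hr) and the afternoon (08 hr) group of each condition, with the 95% interval of the limma fit. An asterisk marks a difference above 1.5-fold at an adjusted p under 0.05. MIPS1 (1.21) and MIPS2 (3.32) are called higher in the morning in controls, and MIPS2 is lower at Recovery24 hr than at Recovery08 hr (-1.68).

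Levels of clock genes also differed between the groups. CCA1, a morning-phased repressor of the circadian oscillator, had a mean signal of 41.6 at Control08 hr (arrays from 5.76 to 76.9) and 4167 at Control24 hr. In treated plants its mean was 193 at Heat08 hr and 147 at Heat24 hr. It was 2610 at Recovery08 hr, where MIPS2 was highest, and 1085 a day into recovery. The afternoon gene GI averaged 894 at Control08 hr and 200.1 at Control24 hr, 1183 and 1043 at the earlier and later heat harvests, and 32.0 and 710 at those of recovery. The evening gene ELF4 averaged 3293 and 43.0 in the same controls, 498 and 1579 in heat, and 264 and 222 during recovery. Against its dim afternoon control, CCA1 was 5.96-fold higher at Heat08 hr (log2 SE 0.733, adjusted p = 0.0180 by limma), where MIPS1 was 3.42-fold lower. CCA1 was 80.8-fold higher at Recovery08 hr (log2 SE 0.728), where MIPS1 was not called. Both were called higher in morning controls and lower at Heat24 hr (log2 fold changes of -4.84 for CCA1 and -2.37 for MIPS1). They were also both called lower at Recovery24 hr (-2.03 and -1.75). MIPS2 was called in the same direction as CCA1 in each of these comparisons. Of the 10 clock genes listed, 4 had a named probe set, and against the control 1 was called increased and 1 decreased at Heat08 hr (14.6% and 16.3% of all probe sets), and 3 increased and 1 decreased at Heat24 hr (19.9% and 22.4%). During recovery 1 was called increased and 3 decreased at the afternoon harvest (21.7% and 17.1% of all probe sets), and 3 increased and 1 decreased at the morning harvest (11.8% and 7.36%). Their part in the differences of MIPS1 and MIPS2 was not tested.

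From heat to recovery at the same clock time, without any control array, PIS2 fell at both harvests and PIS1 rose at both. PIS1 rose by a log2 difference of 1.08 from Heat08 hr to Recovery08 hr (SE 0.172, adjusted p = 0.00603 by limma) and of 2.47 from Heat24 hr to Recovery24 hr (SE 0.299, adjusted p = 0.00227). For PIS2 these differences were -1.46 (SE 0.209, adjusted p = 0.00428) and -1.82 (SE 0.149, adjusted p = 0.000803). No array overlapped in any of these comparisons, and here too the share over all probe sets was not counted. MIPS1 (1.95, SE 0.192, adjusted p = 0.00151) and MIPS2 (1.81, SE 0.279, adjusted p = 0.00541) rose between the afternoon harvests. Between the morning harvests MIPS2 gave 0.70 (SE 0.216, adjusted p = 0.0470) and MIPS1 0.62 (interval -0.08 to 1.32, adjusted p = 0.135), with overlapping arrays for MIPS1. The MIPS2 call of the morning was lost without any one of replicates 1 and 3 of Heat24 hr and replicates 1, 2 and 3 of Recovery24 hr (adjusted p = 0.0827 to 0.115), and its value was 0.22 (adjusted p = 0.498) when arrays were centred on their medians. In the afternoon 3 genes were called higher and 1 lower, where 21.8% and 16.2% of all probe sets were, and in the morning 2 higher and 1 lower, where 23.6% and 17% were.

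Within an array, the log2 ratio of PIS2 over PIS1 averaged -0.98 (SD 0.31, n = 6) at Control08 hr and -1.22 (SD 0.18, n = 9) at Control24 hr. It averaged 1.81 (SD 0.14, n = 3) at Heat08 hr and 3.38 (SD 0.26, n = 3) at Heat24 hr, with no overlap between heat and control arrays. At recovery it was -0.74 (SD 0.46) and -0.90 (SD 0.53), and both groups overlapped their controls. The ratio does not depend on how an array was scaled. The ratio of MIPS2 over MIPS1 was above that of the afternoon control at Recovery08 hr too, with a mean of -0.29 (SD 0.26, n = 3) against -4.01.

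**Figure D4:**
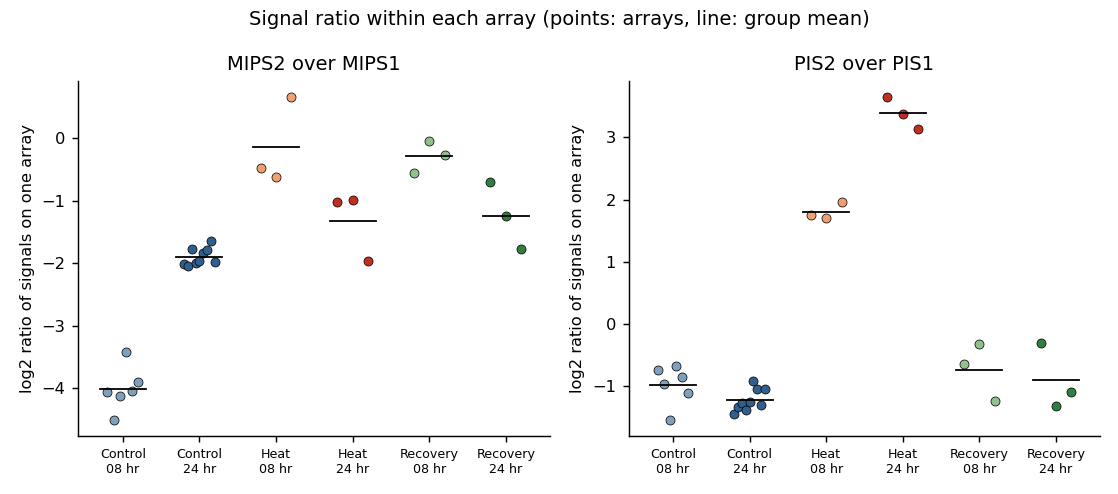
Log2 ratio of the signals of MIPS2 over MIPS1 and of PIS2 over PIS1 on each of the 27 arrays, by group, with a line at the group mean. PIS2 over PIS1 lies above every control on the 6 heat arrays and overlaps the controls at recovery, and MIPS2 over MIPS1 is lowest at Control08 hr.

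Across the 6 groups, the ratio of the highest to the lowest group mean was 14.6 for MIPS2, 7.83 for MIPS1, 6.40 for PIS1 and 3.92 for PIS2. The order of the MIPS1 means was Control24 hr, Recovery08 hr, Control08 hr, Recovery24 hr, Heat24 hr and Heat08 hr, and only Recovery24 hr and Heat24 hr overlapped among neighbours. For MIPS2 the order was Recovery08 hr, Control24 hr, Recovery24 hr, Heat08 hr, Heat24 hr and Control08 hr, with an overlap between Recovery24 hr and Heat08 hr and between both heat groups. PIS1 ran from Control24 hr through Control08 hr, Recovery24 hr and Recovery08 hr to Heat08 hr and Heat24 hr, with overlaps between both control groups, between each of them and Recovery24 hr, and between both recovery groups. PIS2 ran from Heat24 hr and Heat08 hr to the other 4 groups. The control and recovery groups of PIS2 overlapped one another, so no order is read among them.

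The probe sets most like each gene were taken from 7909 probe sets with 1 gene and a mean signal of at least 100, by Pearson's r of the log2 signal over the 27 arrays. The value is a description, since all points share their arrays and fall into 6 groups. For MIPS1 they were AT5G55620 (r = 0.974), AT3G52360 (0.962) and AT3G21390 (0.959). For MIPS2 they were AT4G17840 (r = 0.969), AT2G26800 (0.964) and AT1G68440 (0.946). PIS1 was followed most closely by AT1G01230 (r = 0.975), HISN5B, an enzyme of histidine synthesis (0.971), and AT5G08570 (0.970). The probe set nearest to PIS2 was that of DGAT2, a diacylglycerol acyltransferase of triacylglycerol synthesis (r = 0.968), followed by AT5G05480 (0.955) and AT2G36130 (0.953).

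Other genes of inositol and phosphoinositide metabolism were listed by locus, 72 in all, of which 15 had a named probe set. As 8437 of the 22746 probe sets carried no name, the other listed genes may still be on the array, and only the 15 are counted here. At Heat08 hr 2 were called increased and 5 decreased (14.6% and 16.3% of all probe sets), with a median log2 fold change of -0.51 (-0.13 over all probe sets). At Heat24 hr the counts were 5 and 4 (19.9% and 22.4% of all), with a median of 0.39 (-0.22 over all). They were 2 and 3 at Recovery08 hr (21.7% and 17.1% of all), with a median of 0.18 (-0.09 over all), and 3 and 0 at Recovery24 hr (11.8% and 7.36% of all), with a median of -0.03 (-0.07 over all). In controls, 3 were called higher in the morning and 2 lower (7.84% and 8.22% of all). Calls went in both directions in each group but Recovery24 hr, where 12 of the 15 genes were not called.

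VTC4, a phosphatase that releases free inositol from the product of MIPS and also acts in ascorbate synthesis, stands next to MIPS in the pathway. The other listed phosphatases of this kind, IMPL1 and IMPL2, had no named probe set. VTC4 signal was 1007 to 1142 at Control08 hr and 2135 to 2615 at Control24 hr, 2.22-fold higher in the morning (log2 difference 1.15, SE 0.0612, adjusted p = 9.69e-10 by limma). At Heat24 hr it was 319 to 571, 6.07-fold lower than its control (log2 fold change -2.60, SE 0.154, adjusted p = 2.61e-08). At Heat08 hr the log2 fold change was -0.98 (adjusted p = 5.84e-05), just short of the 0.5-fold limit. MIOX2, an oxygenase that opens the inositol ring on the way to wall precursors, was dim in controls, with a mean of 54.7 at Control24 hr. It was called decreased in heat, with log2 fold changes of -2.16 at 8 h (adjusted p = 0.00573) and -1.53 at 24 h (adjusted p = 0.0185), at signals of 5.78 to 38.8 over both groups. At Recovery24 hr its signal was 240 to 732, 7.83-fold higher (log2 fold change 2.97, SE 0.362, adjusted p = 7.76e-05).

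CDP-diacylglycerol, the other substrate of PIS, is the product of the CDP-diacylglycerol synthases, and all 5 had a named probe set. The paper places CDS5 in the pathway of lipid synthesis within plastids, and which of the 5 supply PIS was not tested. CDS2 was increased at Heat08 hr (log2 fold change 1.56) and Heat24 hr (0.78). CDS5, one of the plastid enzymes of the family, was decreased at Heat08 hr (-1.32), Heat24 hr (-1.87) and Recovery08 hr (-1.96). CDS1 was increased at Heat24 hr (0.72) and Recovery24 hr (0.91), decreased at Recovery08 hr (-1.16) and lower in morning than in afternoon controls (-1.42). Of the 5 members, 1 was called increased and 1 decreased at the first heat harvest (14.6% and 16.3% of all probe sets). The counts were 2 and 1 at Heat24 hr (19.9% and 22.4% of all) and 0 and 3 at Recovery08 hr (21.7% and 17.1%). Among the latter was CDS3, at a dim mean of 32.1 in the control and 3.22 at Recovery08 hr. A day into recovery they were 1 and 0 (11.8% and 7.36%). With 5 genes, these counts are not read as a result about the family.

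Downstream of phosphatidylinositol, 3 phosphoinositide kinases, 1 phospholipase C, 3 inositol phosphate kinases and 1 inositolphosphorylceramide synthase were named. The phosphatidylinositol phosphate kinase gene PIP5K5 was increased at Heat08 hr (log2 fold change 1.45), Heat24 hr (1.16) and Recovery08 hr (1.22), with dim controls of 83.7 and 128 on average. PIP5K7, of the same family, was higher in the morning in controls (2.15), decreased at Heat24 hr (-2.13) and increased at Recovery08 hr (0.78). PIP5K8 was decreased at Heat08 hr (-1.65). PIP5K5 was also higher in the morning in controls (0.60). In heat these 3 kinases shared no direction. At Recovery08 hr 2 of them were called increased and 0 decreased (21.7% and 17.1% of all probe sets). In morning against afternoon controls 2 were called higher and 0 lower (7.84% and 8.22% of all).

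ITPK3, an inositol phosphate kinase, was increased at Heat24 hr (log2 fold change 1.89). IPCS2, which transfers the inositol phosphate head group to ceramide, was decreased at Heat08 hr (-1.97), then increased at Heat24 hr (0.61) and Recovery24 hr (1.09), and was lower in the morning in controls (-1.42). PLC7, a phosphoinositide phospholipase C, had a log2 fold change of 1.99 at Heat24 hr that did not pass (SE 0.836, adjusted p = 0.0604).

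**Figure D5:**
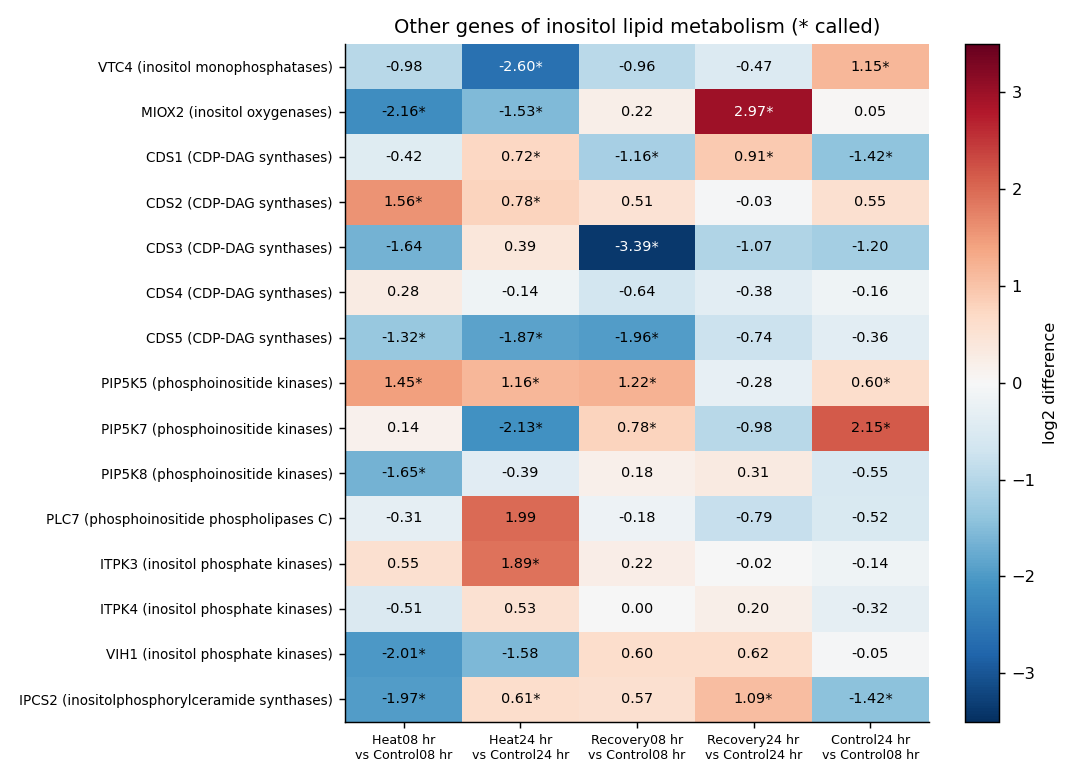
Log2 difference of 15 other genes of inositol and phosphoinositide metabolism (rows, with their gene list) in the comparisons with controls and between morning and afternoon controls (columns). Red is higher and blue lower, and an asterisk marks a called change. VTC4 is lowest at Heat24 hr (-2.60) and CDS5 is called lower in 3 of the 4 comparisons with controls, whereas PIP5K5 is called higher in 3.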

How the data were processed

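The deposited intensity values were linear MAS5 signals of 22746 probe sets on 27 arrays, made by the authors with MAS5 and, per the methods, GeneSpring 12. The methods name a baseline to the median over all samples, which the deposited values do not show, and how the arrays came to a common trimmed mean is not stated. The lowest signal was 1, held by 3685 values. Probe sets were named from the study's list of glycerolipid genes (207), the platform annotation (13384) and the part of the study's table of all probe sets at hand (718), updated through RefSeq locus tags. A further 520 matched several genes and were left unnamed. All probe sets stayed in the tests, and whether a probe set of 1 MIPS or PIS gene also detects its paralogue was not tested. No sequences were used here.

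Two-sided limma tests (version 3.58.1 in R 4.3.3, lmFit then eBayes) were run on log2 signals, with only the compared groups in a fit, controls pooled over ages, and Benjamini-Hochberg adjustment over all probe sets. Against controls, calls required more than 1.5-fold or less than 0.5-fold, and otherwise 1.5-fold either way, with an adjusted p under 0.05. The tests of a difference between fold changes had no fold limit. The 95% intervals are those of the moderated fit. The test was tried on simulated arrays first. The number of arrays limits the precision.

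The named genes are the genes examined, up to 3 called genes of each list with the largest change against a control whose brighter group averaged 100 or more, and the 3 probe sets most correlated with each gene. CDS3 and VIH1 were each called in 1 comparison with controls but did not reach that signal. HSA32 and ELF3 were the other named heat and clock genes. The leaf and seed markers and PLC7, whose change did not pass, were named outside this rule after their values were seen. The genes and lists were chosen with earlier results of these data known. Alternatives were quantile normalization, median centring, 16 added to each signal, only probe sets with a mean of at least 100, all arrays in 1 fit, age-matched controls, a replicate block, other fold limits and leaving out each array. Figures were drawn in Python 3.11.15 with matplotlib 3.10.9.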

Additional observations from a re-analysis of the deposited data

Results flagged for a closer look

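The heat response differed between the afternoon and the morning harvest for all 4 genes by a test of the difference itself, which 35.9% of all probe sets passed. The log2 fold change at Heat24 hr less that at Heat08 hr was -3.89 for MIPS2, -1.18 for PIS1, -0.60 for MIPS1 and 0.64 for PIS2, of which those of MIPS1 and PIS2 are under 2-fold. MIPS1 lost its call without replicate 1 of Heat08 hr or of Heat24 hr (adjusted p = 0.0521 and 0.0544 by limma). PIS2 lost it with controls of the same age (adjusted p = 0.0863). The recovery response differed for both inositol phosphate synthases, by -4.99 for MIPS2 and -1.93 for MIPS1, where 39.1% of all probe sets passed. Clock time, length of treatment and plant age change together between these harvests and cannot be told apart.

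Control groups of 4 or more arrays held no array of MIPS1, MIPS2, PIS1 or PIS2 that stood apart by Dixon's criterion, and groups of 3 arrays were not tested in this way. The largest gap was that of the highest MIPS1 array at Control08 hr (signal 4727), with 0.606 of the range.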

How the results depend on the processing

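All calls of the 4 genes against controls, and between morning and afternoon controls, kept their direction and side of the threshold under every alternative run. Of the values that were not called, PIS1 at Recovery08 hr (-0.44) became a call with no fold limit, which moved the count of decreased genes from 0 to 1. PIS2 at Recovery24 hr turned to -0.0090 after quantile normalization, and PIS1 at Recovery24 hr ranged from -0.45 to 0.0084 on leaving out 1 array. Comparisons between 2 groups of 3 arrays were less firm. For Heat24 hr against Heat08 hr, the count of higher genes was 1 in place of 0 after median centring (PIS2), over probe sets with a mean of at least 100 (MIPS1), with all arrays in 1 fit (MIPS1) and with no fold limit (PIS2), and the count of lower genes ranged from 0 to 1 on leaving out 1 array. For Recovery24 hr against Recovery08 hr, 2 genes in place of 1 were lower over probe sets with a mean of at least 100 and with all arrays in 1 fit (MIPS1 in both), and the count ranged from 0 to 1 on leaving out 1 array. For Recovery24 hr against Heat24 hr, 1 gene in place of 2 was higher after quantile normalization, after median centring and at 2-fold (MIPS2 lost), and the count ranged from 1 to 2 on leaving out 1 array. Of the tests of a difference between heat harvests, the count of positive values was 0 in place of 1 with age-matched controls and at 2-fold (PIS2), MIPS1 (-0.60) was not called at 2-fold, and between recovery harvests it ranged from 0 to 1 and the PIS1 value from -0.012 to 0.45 on leaving out 1 array.

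Correlations of deviations between arrays with the same replicate number were -0.142 to 0.232, never above 0.1 for all numbers of a comparison. For Recovery24 hr against Recovery08 hr they were 0.225, -0.142 and 0.232 for numbers 1, 2 and 3. With so few arrays per group this check cannot show that the number pairs nothing, and the main fits left the number out. With it as a replicate block, the count of lower genes became 0 for Heat24 hr against Heat08 hr (PIS1, adjusted p = 0.0763) and for Recovery24 hr against Recovery08 hr (MIPS2, 0.0666), and the count of higher genes became 1 for Recovery24 hr against Heat24 hr (MIPS2, 0.0814). The block changed no other call of the 4 genes. Over all probe sets it moved the calls from 2220 higher and 2560 lower to 429 and 706 for Heat24 hr against Heat08 hr, and from 1633 and 1630 to 0 and 0 for Recovery24 hr against Recovery08 hr. The latter counts were also 0 and 0 without replicate 1 or 2 of Recovery08 hr or replicate 2 of Recovery24 hr, and 413 and 282 or 32 and 12 without replicate 1 or 3 of Recovery24 hr. They rose to 2804 and 2633 without replicate 3 of Recovery08 hr, 2567 and 2703 with 16 added, 2763 and 2813 over probe sets with a mean of at least 100, and 3522 and 3306 with all arrays in 1 fit. Without that replicate 3, PIS2 gave 0.0065 for Recovery24 hr against Recovery08 hr, -1.30 for Recovery08 hr against Heat08 hr and 0.12 for the difference between recovery harvests, all on the same side of the threshold.

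Over all probe sets, the median log2 fold change at Heat08 hr was -0.13 as deposited and 0.25 with arrays centred on their medians, and at Heat24 hr it was -0.22 and 0.19. Increases made up 47.2% of the Heat08 hr calls as deposited, 69.6% with centring and 58.8% after quantile normalization, and for Heat24 hr these shares were 47.1%, 64.7% and 58%. These shares rest on unequal limits, 1.5-fold for increases and 0.5-fold for decreases. At 2-fold either way the shares as deposited were 33.9% for Heat08 hr and 38.2% for Heat24 hr. With centring, the heat values of MIPS1 were -1.40 and -1.96, of MIPS2 2.46 and -1.39, of PIS1 -1.15 and -2.28, and of PIS2 1.63 and 2.32. Counts of motifs in promoters were planned and not run, as no promoter sequence was used here.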
